A study of Saccharomyces cerevisiae with 2 samples.

Results

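Intergenic open reading frames far from any annotated gene were examined in ribosome profiling data of BY4742, a haploid laboratory strain of Saccharomyces cerevisiae. An intergenic open reading frame (IGORF) is here a stretch between 2 stop codons in 1 reading frame that the study counted apart from annotated coding sequences (CDSs). Its closing stop codon is counted in its length. An IGORF was taken as far when more than 200 nt lay between it and every CDS of the RefSeq R64 annotation on either strand, and between it and every tRNA, rRNA, snoRNA and snRNA gene of its own strand. This rule uses positions only, and 29234 of the 78989 IGORFs (37.0%) met it, in 1821 of the gaps between CDSs. The other 49755 IGORFs lay nearer to such a gene, and overlap with a CDS did not exclude an IGORF from them. Their reads can thus include footprints of genes.

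Ribosome profiling sequences the mRNA fragments that ribosomes cover, and the study asked whether such reads are found outside annotated genes. Both libraries, replicate 1 and replicate 2, came from BY4742 cells, with no other allele in the labels, in mid-exponential growth in synthetic medium, exposed to 50 µg/mL cycloheximide, a drug that stalls elongating ribosomes. They form 1 group with no second condition, and nothing in the labels says whether they came from separate cultures, so the spread between them may be technical. Each sample has a table of read counts over CDSs and a table over IGORFs.

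Far IGORFs matter as raw material for new genes. A gene can arise from DNA that was not coding before, and translation of short frames in transcribed intergenic DNA is one step that such a history needs. In yeast, as in other eukaryotes, the ribosome scans an mRNA from its 5′ end and mostly begins at an ATG codon (AUG in the RNA). A frame defined from stop to stop need not hold an ATG, so that some of these frames offer the usual start and others do not.

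The sequences of 10 far IGORFs are shown because the results below turn on the start codon: 8 hold an in-frame ATG and 2, near URA2 and GDE1, do not, although all 10 are among the 20 far IGORFs with the highest mean level. Each is named for its nearest CDS. They lie at chrV:15877-15981 (minus strand, near DLD3), chrXI:143068-143211 (minus, PIR1), chrIV:699887-700099 (plus, YDR124W), chrXII:614444-614530 (minus, FAR10), chrII:169634-169879 (minus, RPL19B), chrXI:571154-571216 (minus, BET3), chrVII:738538-738600 (plus, PPT1), chrVII:17577-17648 (minus, ADH4), chrX:172795-172878 (minus, URA2) and chrXVI:344945-345016 (minus, GDE1). The letters are those of the RefSeq R64 reference genome, read 5′ to 3′ on the IGORF's own strand, with the first in-frame ATG and the closing stop codon in capitals.
IGORF near DLD3: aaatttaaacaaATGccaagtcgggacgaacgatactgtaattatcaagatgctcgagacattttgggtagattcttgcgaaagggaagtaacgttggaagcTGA
IGORF near PIR1: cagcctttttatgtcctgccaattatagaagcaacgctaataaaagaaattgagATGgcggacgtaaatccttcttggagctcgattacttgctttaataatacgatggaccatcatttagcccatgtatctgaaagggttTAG
IGORF near YDR124W: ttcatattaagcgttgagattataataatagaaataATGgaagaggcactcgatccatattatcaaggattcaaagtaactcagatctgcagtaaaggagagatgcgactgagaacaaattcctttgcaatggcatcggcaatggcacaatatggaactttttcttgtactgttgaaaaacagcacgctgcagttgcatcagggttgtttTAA
IGORF near FAR10: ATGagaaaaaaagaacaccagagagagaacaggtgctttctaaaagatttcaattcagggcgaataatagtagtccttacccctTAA
IGORF near RPL19B: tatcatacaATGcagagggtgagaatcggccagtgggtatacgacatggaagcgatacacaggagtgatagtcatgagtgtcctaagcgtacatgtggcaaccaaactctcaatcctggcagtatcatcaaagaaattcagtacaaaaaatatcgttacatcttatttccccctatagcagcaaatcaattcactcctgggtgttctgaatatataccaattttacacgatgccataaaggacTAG
IGORF near BET3: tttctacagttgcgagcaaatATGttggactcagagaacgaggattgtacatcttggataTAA
IGORF near PPT1: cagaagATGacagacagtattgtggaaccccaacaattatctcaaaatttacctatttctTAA
IGORF near ADH4: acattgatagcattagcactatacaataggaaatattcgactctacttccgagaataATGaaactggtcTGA
IGORF near URA2: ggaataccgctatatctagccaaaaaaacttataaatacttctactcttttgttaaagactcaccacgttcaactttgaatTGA
IGORF near GDE1: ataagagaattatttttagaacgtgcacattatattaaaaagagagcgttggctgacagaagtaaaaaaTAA

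In CDSs there were 23437283 reads in replicate 1, and 4057 in IGORFs. Replicate 2 had fewer CDS reads, 2733591, and more IGORF reads, 15116. In units of reads per 1000000 CDS reads (CPM), a single read was worth 0.0427 in replicate 1 and 0.366 in replicate 2. The depth over IGORFs limits every result below, since most far IGORFs with a read had exactly 1. Intervals on shares are 95% exact binomial intervals and cover counting error only, and they are too narrow where IGORFs overlap and share DNA. With 2 libraries of 1 group, no test over samples between classes of IGORFs could be made, and classes are set side by side.

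Reads were found in few far IGORFs. In replicate 1, 460 of the 29234 far IGORFs (1.57%, interval 1.43 to 1.72) held at least 1 read, against 1172 of the other IGORFs (2.36%, 2.22 to 2.49) and 2.07% of all IGORFs. In replicate 2, 1206 far IGORFs (4.13%, 3.90 to 4.36) did, against 2653 of the other IGORFs (5.33%, 5.14 to 5.53) and 4.89% of all. In each library the far class therefore lay below the rest by more than counting error, while the libraries differed from each other by more than the classes did. Over the libraries the share averaged 2.85 ± 1.80% (SD, n = 2) in far IGORFs and 3.84 ± 2.10% in the others.

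Far IGORFs received 746 reads in replicate 1 and 3014 in replicate 2, which was 18.4% and 19.9% of all IGORF reads (19.2 ± 1.10%, SD, n = 2). They made up 3169.833 kb of summed IGORF length, against 5382.042 kb for the others. Read density was 0.235 reads per kb in far IGORFs and 0.615 in the others in replicate 1, and 0.951 and 2.25 reads per kb in the same order in replicate 2. The ratio of far to other density was thus 0.383 in replicate 1 and 0.423 in replicate 2. The IGORFs within 200 nt of an opposite-strand CDS only had a lower density than the far class, 0.141 and 0.700 reads per kb. A single IGORF outside the far class took 19.9% of the reads of the other IGORFs in replicate 1 and 27.6% in replicate 2. The ratio averaged 0.518 over the libraries without the highest IGORF of each class. The classes were alike in median length, 93 nt in both, and differed in base composition, with a median GC content of 37.5% in far IGORFs and 34.7% in the others.

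The far IGORFs that held reads were partly shared between the libraries. Reads in both libraries were found in 230 far IGORFs (0.787%), against 665 of the other IGORFs (1.34%) and 1.13% of all. These 230 were 50.0% of the far IGORFs with a read in replicate 1 and 19.1% of those in replicate 2, against 56.7% and 25.1% for the other IGORFs. The 27798 far IGORFs with no read in either library were 95.1% of the class. Among far IGORFs with 0 reads in replicate 1, 3.39% of 28774 had a read in replicate 2. That share was 39.4% of the 327 with 1 read in replicate 1, 64.9% of the 77 with 2, and 91.1% of the 56 with 3 or more. More reads in 1 library thus went with a higher share read in the other, a description across IGORFs of the same pair of libraries.

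High counts were rare. At least 10 reads were seen in 5 far IGORFs in replicate 1, against 33 others and 0.0481% of all IGORFs, and in 33 far IGORFs in replicate 2, against 157 others and 0.241% of all. Both libraries reached 10 reads in 3 far IGORFs and 26 others, with 0.0367% over all IGORFs. Of the far IGORFs with a read, 71.1% had a single one in replicate 1 and 63.7% in replicate 2. The 10 far IGORFs with the most reads took 93 reads (12.5% of those of the class) in replicate 1 and 587 (19.5%) in replicate 2.

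Far IGORFs with an in-frame ATG held reads more often than those without. Of the 13322 far IGORFs with an in-frame ATG, 358 (2.69%, interval 2.42 to 2.98) held a read in replicate 1, against 102 of the 15912 without (0.641%, 0.523 to 0.778). In replicate 2, 950 (7.13%, 6.70 to 7.58) of those with an ATG held a read, against 256 (1.61%, 1.42 to 1.82) of those without. The share was thus 4.19-fold higher with an ATG in replicate 1 and 4.43-fold higher in replicate 2 (4.31 ± 0.170, SD, n = 2).

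Reads followed the same pattern. Far IGORFs with an ATG took 595 reads, against 151 in those without, in replicate 1, and 2602 against 412 in replicate 2. Per length this was 0.373 against 0.0958 reads per kb in replicate 1 and 1.63 against 0.261 reads per kb in replicate 2. The ATG-bearing IGORFs, 45.6% of the far class, therefore held 79.8% of its reads in replicate 1 and 86.3% in replicate 2.

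Seen from the reads, the share of far IGORFs with an ATG was higher among those with reads. It was 43.9% among the far IGORFs with no read in either library. It was 77.8% among those with a read in replicate 1 and 78.8% among those with one in replicate 2. Of the 230 with reads in both libraries 193 held an ATG, or 83.9% (78.5 to 88.4), and of the 35 with at least 10 reads in either library 31 did, or 88.6% (73.3 to 96.8). These classes with reads share members, so their overlapping intervals cannot show whether the share rose further with more reads. For at least 2 reads in place of 1, the ratio with over without an ATG was 5.42 in replicate 1 and 6.28 in replicate 2. The other IGORFs showed a smaller difference. Their share with an ATG was 43.1% in all, 42.1% with no read in either library, 52.3% with a read in replicate 1 and 58.1% with one in replicate 2. It was 50.7% with reads in both libraries, 47.5% (34.6 to 60.7) with at least 5 reads in both and 56.1% (48.1 to 63.8) with at least 10 in either.

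Outside the far class the difference in the share with a read was smaller. Among the other IGORFs the share with a read was 2.86% with an ATG and 1.97% without in replicate 1, a ratio of 1.45, and 7.19% and 3.92% in replicate 2, a ratio of 1.83. IGORFs with an ATG were thus read about as often in the far class as elsewhere, and the classes stood apart in the IGORFs without one. Density went the other way over the other IGORFs as a whole. It was 0.503 reads per kb with an ATG and 0.717 without in replicate 1, and 1.98 and 2.49 in replicate 2. By length its direction varied, with a ratio of 0.542 and 0.411 from 63 to 75 nt and 1.21 and 2.32 from 76 to 93 nt. A large difference in favour of an ATG was nevertheless seen in 1 group of those nearer to genes. The 20287 IGORFs near an opposite-strand CDS only had no CDS within 200 nt on their own strand. Their ratio of shares was 8.77 in replicate 1 and 5.82 in replicate 2. By density the ratio was 10.4 and 9.71, against 3.90 and 6.25 in the far class. No test of these differences over samples could be made.

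The difference was seen in every length class. In far IGORFs of 63 to 75 nt, 1.85% of those with an ATG and 0.417% of those without had a read in replicate 1, and 4.94% and 1.14% did in replicate 2. From 76 to 93 nt the shares were 2.05% with and 0.420% without an ATG in replicate 1, and 5.81% and 1.09% in replicate 2. The shortest frames thus already showed it. From 94 to 126 nt the shares were 2.46% with and 0.881% without in replicate 1, and 6.67% and 1.99% in replicate 2. Over 126 nt they were 3.76% with and 1.06% without in replicate 1, and 9.65% and 2.75% in replicate 2. The intervals of the 2 kinds were apart in each class and library.

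**Figure D1:**
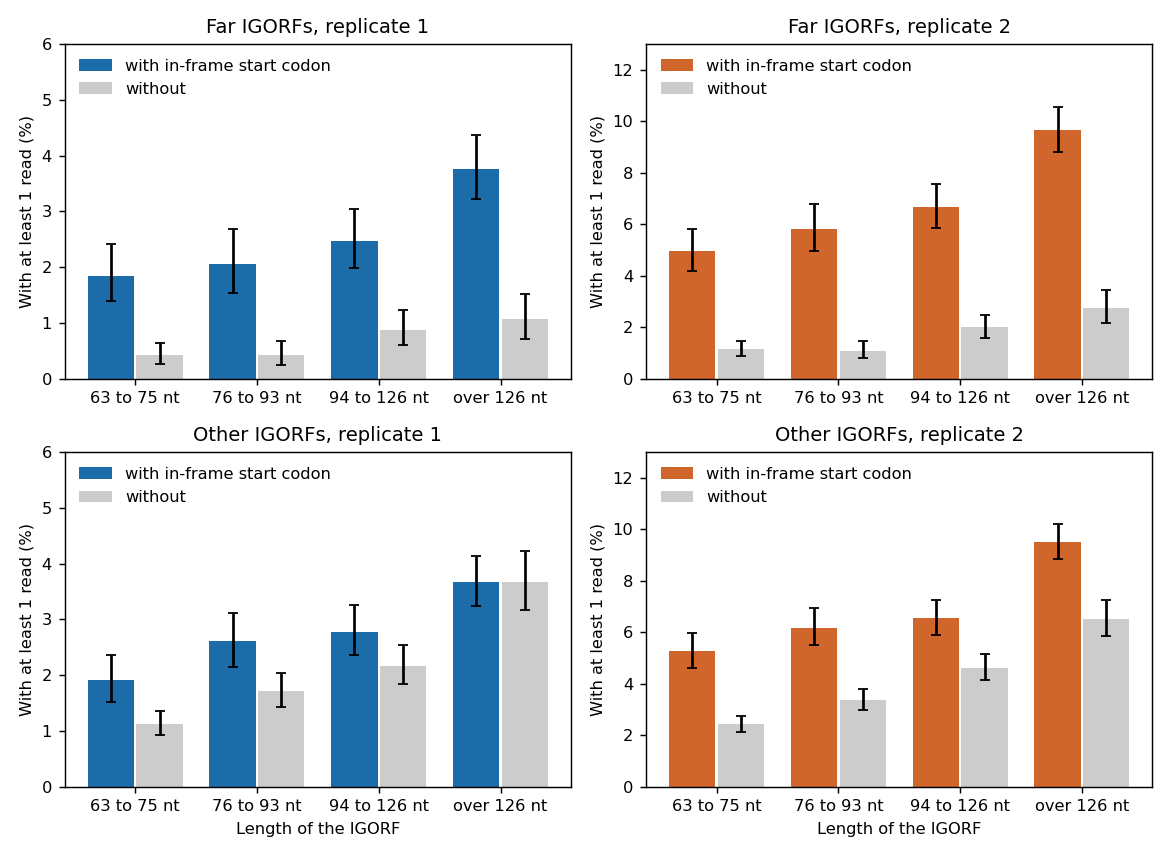
Percentage of IGORFs with at least 1 read (vertical axis) by length of the IGORF (horizontal axis), with an in-frame ATG (coloured bars) and without (grey bars). Far IGORFs are above and other IGORFs below, replicate 1 is left and replicate 2 right, and error bars are 95% exact binomial intervals. In far IGORFs the coloured bar stands clear of the grey one in all 4 length classes of both libraries, and in the other IGORFs the bars lie closer, down to equal height over 126 nt in replicate 1 (3.67% both).

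The same comparison was made for each of the 61 sense codons, as the share with a read in far IGORFs that hold the codon in frame over those that do not, standardised for length. ATG ranked first in both libraries, at 3.64 in replicate 1 and 3.88 in replicate 2. The other 60 codons ranged from 0.700 to 1.84 in replicate 1, with GAG highest, and from 0.750 to 1.39 in replicate 2, with AAC highest. An ATG in the other frames of the same stretch did not show the pattern. With an ATG shifted by 1 nt the ratio was 0.832 in replicate 1 and 0.948 in replicate 2, and with one shifted by 2 nt it was 0.798 and 0.948. In the other IGORFs the in-frame ATG ranked at place 10 in replicate 1, at 1.27, and first in replicate 2, at 1.63.

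**Figure D2:**
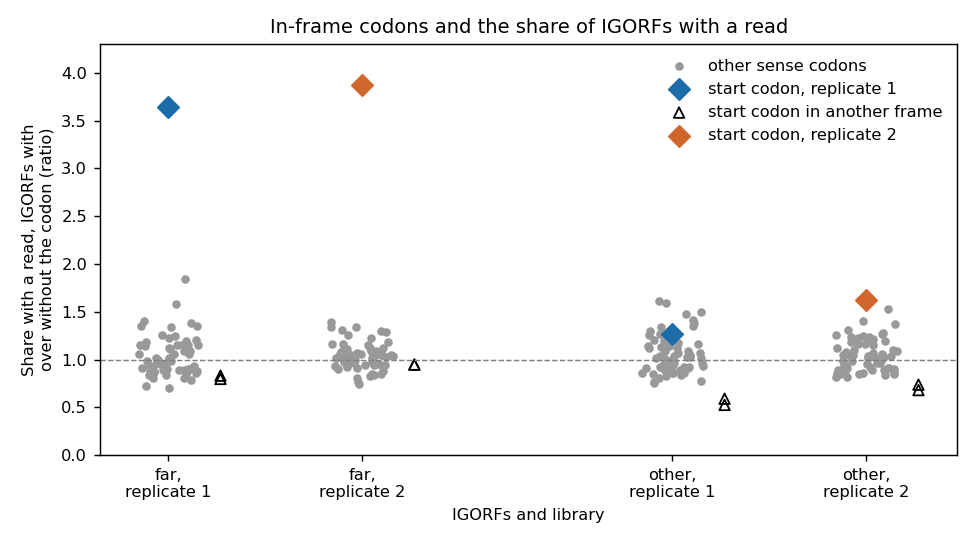
Ratio of the share of IGORFs with a read between those with and those without a codon in frame, standardised for length (vertical axis), in far and other IGORFs of each library (horizontal axis). Diamonds are ATG, grey points the other 60 sense codons, spread sideways for visibility, and triangles an ATG in another frame. In far IGORFs the diamonds, at 3.64 and 3.88, lie well above the highest other codon, at 1.84 and 1.39.

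Overlapping IGORFs allowed a comparison between frames that share part of their DNA. Of the far IGORFs, 25798 (88.2%) overlapped another far IGORF of their strand by at least 30 nt in another frame, which gave 12056 pairs of 1 IGORF with and 1 without an ATG. In replicate 1 the one with the ATG had more reads in 374 pairs and the one without had more in 53, which is 87.6% of the 427 pairs with unequal counts. In replicate 2 it had more in 958 pairs against 120, or 88.9% of 1078. An IGORF can enter several pairs, so the pairs are not independent comparisons. The ATG-bearing member was the longer one in 7979 pairs and the shorter one in 3812. In the 2847 pairs whose lengths differed by at most 1.2-fold, it had more reads in 65 against 17 in replicate 1 (79.3%) and in 190 against 28 in replicate 2 (87.2%).

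The deposited counts did not follow position alone. In 6823 pairs 1 far IGORF lay wholly inside another on its strand, so that plain counting of overlapping reads would give the outer one at least as many. The inner IGORF had a read in 54 such pairs in replicate 1 and in 158 in replicate 2. It nevertheless had more reads than the outer one in 46 of them in replicate 1 and in 119 in replicate 2. How reads were assigned to a frame, or selected, is not given in the sources used here, and the part of that step in the ATG pattern was not tested.

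Among far IGORFs with an ATG, those with a longer frame after it were read more often. With 1 to 5 codons from the first ATG to the stop, 0.997% had a read in replicate 1 and 3.06% in replicate 2. The shares were 1.59% and 4.25% for 6 to 10 codons, 2.07% and 5.41% for 11 to 20, and 3.15% and 8.34% for 21 to 30. They reached 4.19% and 11.1% for 31 to 50 codons and 4.84% and 12.6% for 51 or more. The share thus rose with the frame in both libraries, and the IGORFs also became longer. Density did not rise throughout. It was highest at 21 to 30 codons, with 0.518 reads per kb in replicate 1 and 2.38 in replicate 2. It was 0.411 and 1.69 reads per kb at 31 to 50 codons and 0.348 and 1.75 at 51 or more.

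The base at the third position before the ATG, where yeast initiation sites favour A, was also compared. Where the ATG opens the IGORF, this base is the T of the stop codon before it. The T class thus holds all such IGORFs, and the base cannot be told apart there from the place of the ATG. In replicate 2 the share with a read was 8.12% (7.32 to 8.97) with A, 7.76% with G, 6.12% (5.21 to 7.14) with C and 6.26% (5.52 to 7.06) with T. In replicate 1 it was 2.74% with A, 2.81% with G, 2.80% with C and 2.48% with T, with intervals that overlapped. A difference by this base was thus seen beyond counting error between A and either C or T in replicate 2 and was not detectable in replicate 1 at its depth.

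Reads became rarer with distance from coding sequence. Of the 17456 far IGORFs at more than 200 and up to 500 nt, 1.78% had a read in replicate 1 and 4.74% in replicate 2. Of the 7767 up to 1000 nt the shares were 1.49% and 3.77%, and of the 3037 up to 2000 nt they were 0.988% and 2.57%. Of the 974 beyond 2000 nt, 3 IGORFs (0.308%, 0.0636 to 0.897) had a read in replicate 1 and 7 (0.719%, 0.289 to 1.48) in replicate 2. Both libraries kept this order. Density followed it, at 0.276, 0.218, 0.109 and 0.0377 reads per kb in replicate 1 and 1.15, 0.764, 0.541 and 0.113 reads per kb in replicate 2.

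Repeated sequence moved with distance. A 28-mer, a stretch of about a footprint's length, that occurs elsewhere in the genome was present in 7.70% of the far IGORFs up to 500 nt and in 60.0% of those beyond 2000 nt. Without such IGORFs the shares were 1.90%, 1.69%, 1.07% and 0.769% in replicate 1 and 5.08%, 4.25%, 2.79% and 1.79% in replicate 2, in order of distance. The order was the same, with wide intervals for the 390 IGORFs left in the farthest class. When distance was counted to CDSs of the same strand only, the shares were 1.55%, 1.24%, 1.41% and 1.01% in replicate 1 and 4.23%, 3.64%, 3.69% and 3.28% in replicate 2, so that they no longer fell at every step. The last class, with 14776 IGORFs, then averaged 2.15%, against 0.513% for distance to CDSs on either strand.

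The 200 nt bound itself did not mark a step. The 2188 IGORFs at 201 to 220 nt had a read in 2.10% of cases in replicate 1 and 4.98% in replicate 2. The 2400 at 181 to 200 nt had one in 2.12% and 4.79%.

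**Figure D3:**
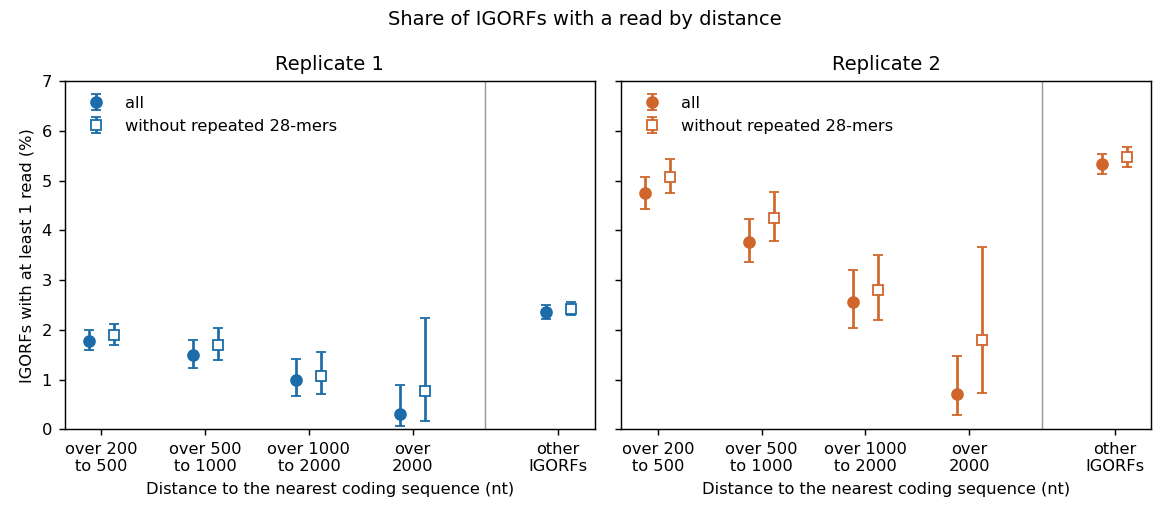
Percentage of IGORFs with at least 1 read (vertical axis) by distance to the nearest CDS in nt (horizontal axis), with the other IGORFs at the right of each panel. Filled circles are all IGORFs of a class, open squares those with no repeated 28-mer, and bars are 95% exact binomial intervals. The circles go down from 1.78% to 0.308% with distance in replicate 1 and from 4.74% to 0.719% in replicate 2, and the squares keep that order with wider intervals.

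Shares differed less by the strands of the neighbouring genes than by the start codon. The 12001 far IGORFs with an opposite-strand CDS before them and a same-strand CDS after them, which is where the promoter and leader of the next gene lie, had a read in 1.80% of cases in replicate 1 and 4.73% in replicate 2. The 7316 with both neighbours on the opposite strand had one in 1.60% and 4.31%, and the 7058 with both on the same strand in 1.39% and 3.71%. The 2547 with a same-strand CDS before and an opposite-strand CDS after them had one in 1.10% and 2.32%, the lowest of these 4 arrangements in both libraries. The 312 next to a chromosome end had one in 0.321% and 0.641%, and 75.0% of them held a 28-mer found elsewhere in the genome. Reads were more often found with an ATG in all 4 arrangements between CDSs. The ratio with over without an ATG was 4.65 in replicate 1 and 4.35 in replicate 2 for an opposite-strand CDS before and a same-strand CDS after. It was 5.60 and 5.34 with both on the opposite strand and 2.16 and 3.50 with both on the same strand. For a same-strand CDS before and an opposite-strand CDS after it was 15.8 and 6.77, of which 15.8 rests on 2 read IGORFs without an ATG. The annotation used gives no transcript ends, so far IGORFs inside a leader or trailer cannot be told apart from those outside any transcript.

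Far IGORFs near chromosome ends were seldom read. Of the 5582 within 20000 nt of an end, 0.788% had a read in replicate 1 and 2.04% in replicate 2, against 1.76% and 4.62% of the 23652 farther in. A repeated 28-mer was present in 40.8% of those near an end and 4.42% of the rest, and its part in this difference was not tested. Chromosome I, the smallest, had 68.1% of its IGORFs in the far class, the highest share of the 16, and the lowest share with a read, 0.475% in replicate 1 and 1.90% in replicate 2. Chromosome II had the highest, 2.69% and 5.50%.

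Far IGORFs with repeated sequence were seldom read. The 3325 far IGORFs with a repeated 28-mer drew 8 reads in replicate 1 but 31 in replicate 2, in 0.241% and 0.571% of them, against 1.74% and 4.58% of the 25909 without one. This contrast was larger than that by start codon. The 1632 in which every 28-mer was repeated had 0 reads in both libraries, where an exact interval allows a share of up to 0.226%. How reads with several positions were counted is not given in the sources used here, so a low level there cannot be told apart from a loss of such reads. The 854 far IGORFs within 200 nt of an opposite-strand tRNA, rRNA, snoRNA or snRNA gene lay below the class beyond counting error. Of them, 0.234% (0.0284 to 0.843) had a read in replicate 1 and 2.22% (1.34 to 3.45) in replicate 2. Other annotated elements overlapped few far IGORFs, and the shares with a read of these did not lie below those of the class beyond counting error. The 115 that overlapped a noncoding RNA or pseudogene of their strand had a read in 2.61% of cases (0.541 to 7.43) in replicate 1 and 6.09% (2.48 to 12.1) in replicate 2, and 32 of their 39 reads in replicate 2 lay in the IGORF near ADH4. The 37 in an annotated regulatory region had one in 5.41% (0.661 to 18.2) and 8.11% (1.70 to 21.9). The 41 overlapping an annotated repeat or mobile element and the 36 overlapping an origin of replication had no read in replicate 1. In replicate 2, 4.88% (0.596 to 16.5) of the 41 and 5.56% (0.680 to 18.7) of the 36 had one.

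The reads were spread over many gaps. Of the 1821 gaps with far IGORFs, 328 had a read in replicate 1, 614 in replicate 2, 274 (15.0%) in both and 668 (36.7%) in at least 1. A gap held a median of 8 far IGORFs and at most 302. In 23 gaps at least 3 far IGORFs held a read in each library.

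The gap with the highest level by reads per 10000 IGORF reads, averaged over the libraries, was chrXI:142820-144400 between PIR1 and PIR3, genes of O-glycosylated cell wall proteins that diverge from it. Its 36 far IGORFs held 16 reads in replicate 1 and 92 in replicate 2, with 14 and 84 of them on the minus strand, all in the 1 IGORF near PIR1 shown above. The next was chrV:14416-16354 between RMD6, a gene needed in sporulation, and DLD3, a 2-hydroxyglutarate transhydrogenase. Its 52 far IGORFs held 6 and 126 reads, all on the minus strand, opposite to both genes. The third was chrII:169377-170622 between RPL19B, a protein of the large ribosomal subunit, and LSM2, a subunit of the Lsm complexes of RNA decay and splicing. Its 17 far IGORFs held 16 and 60 reads, again all on the strand opposite to both genes. In all 3 gaps a single IGORF held most of the reads.

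Levels of single far IGORFs are given as reads and as reads per kb, since lengths differ. The 20 with the highest mean of reads per 10000 IGORF reads included 18 with an in-frame ATG, 18 with reads in both libraries, 18 within 500 nt of a CDS and 0 with a repeated 28-mer. They were chosen for their reads, so their levels are a description with no test.

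The IGORF near DLD3, of 105 nt and 373 nt from that gene on the opposite strand, drew 6 reads in replicate 1 but 117 in replicate 2 (57.1 and 1114 reads per kb). It was the highest far IGORF in replicate 2 by reads and by density. Its first ATG, at nt 13, opens a frame of 30 codons. The IGORF near PIR1 had 14 and 84 reads (97.2 and 583 reads per kb), the most of any far IGORF in replicate 1. It lies 248 nt upstream of PIR1 on the same strand, and its ATG at nt 55 opens a frame of 29 codons.

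The IGORF near YDR124W had 1 read in replicate 1 and 99 in replicate 2 (4.69 and 465 reads per kb), so that its rank rests on replicate 2. It lies 215 nt upstream of YDR124W, a poorly characterised gene, in the gap shared with INO2, an activator of phospholipid synthesis genes, and its frame of 58 codons starts at nt 37. The IGORF near FAR10 had 13 and 53 reads (149 and 609 reads per kb) and starts with an ATG directly, which leaves 28 codons. It lies 224 nt from FAR10, which acts in recovery from pheromone arrest, on the opposite strand, in the gap next to the thiamine transporter gene THI7. The IGORF near RPL19B had 11 and 46 reads (44.7 and 187 reads per kb), and its frame of 78 codons from nt 10 is the longest of the 8 ATG frames shown. Another 4 far IGORFs overlap it in other frames and held 5 and 13 reads together. Those near PIR1, FAR10 and RPL19B were the 3 far IGORFs that reached 10 reads in each library.

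Shorter frames were among the highest as well. The IGORF near BET3, a subunit of the TRAPP tethering complexes, had 3 and 53 reads (47.6 and 841 reads per kb) and a frame of 13 codons. The one near PPT1, a phosphatase that acts on Hsp90, had 6 and 32 reads (95.2 and 508 reads per kb) and a frame of 18 codons. Both are 63 nt long, the shortest length among all IGORFs. The IGORF near TIM18, a subunit of the mitochondrial TIM22 import complex, had 2 and 40 reads, and that near MTR2, an mRNA export factor, had 2 and 31. All 4 had most of their reads in replicate 2.

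The 2 without an in-frame ATG did not have more reads in replicate 2. The IGORF near URA2, which encodes the first enzymes of pyrimidine synthesis, had 10 reads in replicate 1 but 4 in replicate 2 (119 and 47.6 reads per kb), 427 nt upstream of that gene. The one near GDE1, a glycerophosphocholine phosphodiesterase, had 8 and 8 reads (111 and 111 reads per kb), 205 nt upstream of it. With the IGORF near YOR385W, which had 10 and 0 reads and does hold an ATG, they are examples of far IGORFs whose rank rests on replicate 1. A count of 0 in replicate 2 allows up to 1.10 CPM there, above the 0.427 CPM that 10 reads gave in replicate 1, so no fold is given.

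The IGORF near ADH4 had no read in replicate 1 but 32 in replicate 2 (0 and 444 reads per kb). It lies 1269 nt from that gene inside SUT532, an annotated noncoding RNA of the same strand described in RefSeq as acting on gene expression in trans. It holds an ATG at nt 58 that leaves a frame of 4 codons. It was the only far IGORF of the 20 beyond 1000 nt from a CDS. The remaining ones, near TYE7, YBL100W-B, GPC1, RPL4B, PAU17, MCT1 and SCY1, had 2 to 9 reads in replicate 1 and 5 to 22 in replicate 2.

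**Figure D4:**
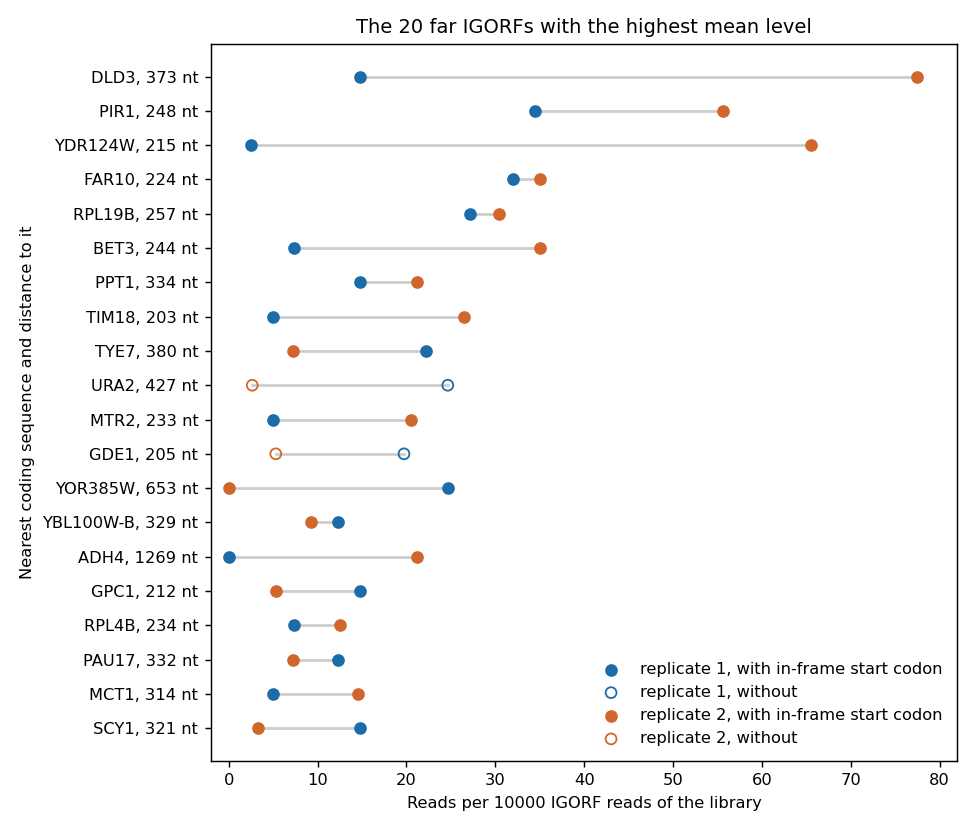
Reads per 10000 IGORF reads of the library (horizontal axis) in the 20 far IGORFs with the highest mean level, each named by its nearest CDS and the distance to it (vertical axis), in replicate 1 (blue) and replicate 2 (orange). Filled points hold an in-frame ATG and open ones do not, and grey lines join the libraries. The points of the IGORFs near FAR10 and RPL19B lie close together, while those near DLD3 and YDR124W lie far to the right in replicate 2 only, at 77.4 and 65.5 against 14.8 and 2.46 in replicate 1.

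Neither length nor distance went with high counts at the extremes. The longest far IGORF, chrXII:219386-220720 on the minus strand, has 1335 nt and overlaps an annotated Ty1 LTR, and it had 0 reads in both libraries, with 1304 of its 1308 28-mers repeated elsewhere. The next, chrVI:257210-257713 on the minus strand (504 nt), had 0 reads in both, and chrI:198454-198954 on the plus strand (501 nt) had 0 reads in replicate 1 and 1 in replicate 2, neither with a repeated 28-mer. The 3 farthest from any CDS lie between FLO1, a flocculin gene, and YAR064W, at chrI:214032-214193 (6004 nt away), chrI:214033-214203 (5994 nt) and chrI:214073-214225 (5972 nt). They overlap each other, hold mostly or only repeated 28-mers, and had 0 reads in both libraries.

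Relative to CDS reads the libraries stood far apart. Far IGORFs summed to 31.8 CPM in replicate 1 and 1103 CPM in replicate 2, which is 34.6-fold more in replicate 2, and the other IGORFs had 31.3-fold more. The split of each IGORF's reads between the libraries was set against that of all CDS reads with a two-sided exact binomial test. All 96 IGORFs that averaged 10 reads or more were tested, with p-values adjusted by Benjamini-Hochberg over them. The test called 16 of the 16 far IGORFs tested, all higher in replicate 2, and 3 of the 16 reached 10 reads in both libraries. Over all IGORFs tested 96.9% were called in that direction, so the call says nothing particular of far IGORFs. No far IGORF had more than 14 reads in replicate 1. Each of the 16 thus passed the minimum through its reads in replicate 2, and none could have been called lower there. The test compares these libraries beyond counting error and not conditions.

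Of the 3 named for their ratio, the IGORF near ADH4 was at least 91.5-fold higher in replicate 2 with its count of 0 set to 3 reads, a bound that does not fix its place in the order. The ratio of the IGORF near YDR124W, from 99 reads against 1, was 849-fold with an interval of 149 to 33860. The third was chrXIII:915391-915570 on the plus strand, 852 nt from FET4, a low-affinity iron transporter gene, with 1 read in replicate 1 and 21 in replicate 2 (180-fold, interval 29.0 to 7446). The IGORFs near TIM18 and DLD3 followed at 171-fold (interval 44.5 to 1465) and 167-fold (74.5 to 465), within that interval. No far IGORF was called lower in replicate 2, a call that their counts in replicate 1 did not allow.

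Scaled to the totals of IGORF reads instead, 6 of the 16 were called, 5 of them higher in replicate 2. When the 2 IGORF tables were swapped, far IGORFs came to 129 CPM against the CDS reads of replicate 1 and 273 CPM against those of replicate 2, and 2 of the 16 were called, 1 in each direction. The IGORF near YDR124W then stood at 4.22 CPM in replicate 1, against 0.366 CPM in replicate 2, so its direction turned. Whether the tables belong to the CDS tables they were deposited with was not tested. Shares within a library, such as those by start codon or distance, do not use the CDS totals.

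**Figure D5:**
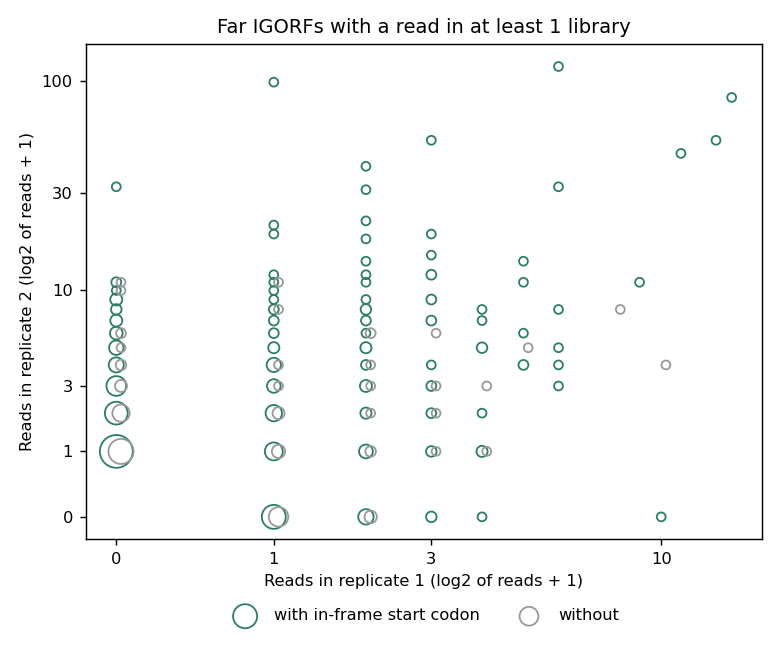
Reads of far IGORFs in replicate 1 (horizontal axis) and replicate 2 (vertical axis), both as log2 of reads + 1 with ticks in reads, with circle size rising with the number of IGORFs at that pair of counts. Green circles hold an in-frame ATG and grey ones, shifted slightly to the right, do not, and the 27798 far IGORFs with no read in either library are left out. Most lie at 1 read in 1 library and 0 in the other, and the 3 with at least 10 reads in both are at the upper right, all green.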

How the data were processed

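Raw read counts per CDS and per IGORF in 2 replicate libraries of BY4742 had been made by the authors and deposited unnormalised, per the file headers and the whole-number values. Per the submitters' processing notes, cutadapt, Bowtie and SAMtools were used with the build sacCer3, no version being given. The counting step, any selection by frame and the treatment of multiply mapped reads, which decide the reads an IGORF receives, are not given in the sources.

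Positions and strands came from the IGORF identifiers, read as 1-based on R64, since all 78989 began right after a stop codon and ended with one in that RefSeq sequence, which gave their codons. Distance is the number of nt between an IGORF and a CDS. A 28-mer counted as repeated when it occurred elsewhere in the genome on either strand. CPM is reads per 1000000 CDS reads. Codon ratios were standardised over 4 length classes. Shares have 95% exact (Clopper-Pearson) intervals, and a count of 0 has a limit of 3 reads. The threshold for adjusted p was 0.05. The test was tried on counts simulated from CDS levels with counting error only, which is unlike the sparse IGORF counts. Scaling alternatives used edgeR 4.0.16 and DESeq2 1.42.0 in R 4.3.3, and the rest used Python 3.11.15, numpy 2.4.6, scipy 1.17.1, pandas 2.3.3 and matplotlib 3.10.9.

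Single IGORFs were named by a rule: the 20 with the highest mean of reads per 10000 IGORF reads, those with at least 10 reads in both libraries, the 3 longest, the 3 farthest, the 3 highest gaps and the 3 largest library differences in each direction. The class, the lists and the tests were chosen with earlier results of these data known. The start codon comparison by length, codon, overlapping pair and frame was added after data were seen.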

Additional observations from a re-analysis of the deposited data

How the results depend on the processing

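No paired analysis was possible because both libraries belong to 1 group. Of 81 alternative values, 49 stayed within the spread between the libraries or within 1.5 times the count. The 49 include shares and ratios from 1 library alone, which lie within that spread by construction.

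The mean share of IGORF reads in far IGORFs (19.2%) was 35.0% at a distance of over 100 nt, where the class held 45804 IGORFs. It was 5.32% at over 500 nt, where the class held 11457. This share changes with the size of the class, and the density ratio at over 100 nt was 0.390. The share was 24.4% in IGORFs of at least 90 nt and 23.3% without the highest IGORF of each class. The density ratio (0.403) was 0.330 at over 500 nt, 0.435 without repeated 28-mers, 0.547 at 90 nt or more and 0.518 without the highest IGORFs. Those that reached 10 reads in both (3) numbered 9 at over 100 nt and 0 at over 500 nt, 13 with a minimum of 5 reads and 230 with 1, and 5 to 33 when 1 library was used. The share with a read (2.85%) was 0.977% for at least 2 reads and 0.227% for at least 5.

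Of the 16 far IGORFs tested, the library test called 16 with TMM or DESeq2 scaling, 6 with IGORF totals (5 higher in replicate 2) and 2 with exchanged tables (1 higher and 1 lower). Other settings changed the number tested. The test called 50 of 52 at a mean of 5 reads, 389 of 1436 at 1 read, 32 of 32 at over 100 nt and 2 of 2 at over 500 nt. The share called at 1 read was thus the lowest of these 4. An IGORF with 1 read in total could not reach the threshold there. The test needs both libraries. Beyond 2000 nt the share (0.513%) was 2.15% by same-strand CDSs and 1.28% without repeats. An in-frame ATG followed by at least 10 codons was present in 75.7% of the IGORFs with reads in both libraries. The ATG ratio (4.31) was 5.85 for at least 2 reads, 5.07 beyond 500 nt, 4.08 beyond 1000 nt, 5.12, 3.07 and 3.53 in the 3 longer length classes and 5.53 in overlapping pairs. The cause of these shifts was not tested.

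With 1 library used, the share with a read ranged from 1.57% to 4.13%, the share of reads from 18.4% to 19.9%, the density ratio from 0.383 to 0.423 and the ATG ratio from 4.19 to 4.43. Depth limits small classes, such as that beyond 2000 nt, where 3 and 7 IGORFs held a read.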
